A study of Mus musculus with 6 samples.

Results

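Matrix metalloproteinases (MMPs) are the 10 genes Mmp2, Mmp3, Mmp9, Mmp10, Mmp11, Mmp12, Mmp13, Mmp14, Mmp19 and Mmp23, picked by their gene symbols out of 55335 genes in a count table of mouse embryonic fibroblasts (MEFs). They take in the collagenase, gelatinase, stromelysin and membrane-type classes of the family, and the 13 other MMP genes of the table served for comparison. The question was how the mRNA of these genes stood in cells that had squeezed through narrow pores. Wild-type (WT) MEFs were put on the upper face of a transwell membrane with 3 μm pores, and those found on the other side after 15 h made the Confine group. Parental MEFs without transmigration made the Ctrl group. The cells of both groups were 1 line, labelled MEFs, and were cultured in medium with fetal bovine serum. The cells of Confine were those able to pass, so an effect of the passage, of contact with the membrane and of the choice of cells that crossed cannot be told apart here. The same holds for serum, since the study's other transwell assay had it on the lower side only, and the medium used with the 3 μm pores is not given in the sources used here. Polyadenylated RNA was sequenced from 3 libraries per group.

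MMPs are zinc-dependent endopeptidases that cut collagens, proteoglycans, laminins, fibronectin and many cell surface proteins. Most are made as inactive proenzymes, are activated by removal of a propeptide, and are held in check by tissue inhibitors of metalloproteinases (TIMPs). Fibroblasts are a main source of several of them during wound repair and cells that cross dense matrix use them to open a path.

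The deposited columns of Confine replicates 1 and 2 held the same count in 55335 of 55335 genes. They were counted as 1 library, called Confine replicate 2 here, which left 3 Ctrl and 2 Confine libraries with 22287210 to 32537550 counts each. No label says that replicates came from separate cultures, so p-values measure only the spread between these libraries, which may be technical. Of the 10 fibroblast markers checked, Col1a1, Col1a2, Col3a1, Vim, Pdgfra and Pdgfrb passed the filter on low counts, while no library held over 2 counts of Thy1, Fap or Lum or over 27 of Dcn. Levels are given as TMM-normalized CPM (a gene's reads scaled to a common library size), in the order Ctrl replicates 1, 2 and 3 and then Confine replicates 2 and 3. A gene was said to rise or fall at an adjusted p under 0.05 in edgeR's quasi-likelihood test over 15881 genes, and it was called when its log2 fold change was also beyond 1.5 in either direction.

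Of the 10 MMP genes, 5 were called higher in Confine and 0 were called lower. Mmp3, Mmp9, Mmp10, Mmp12 and Mmp13 were called, and Mmp11 rose by less than the fold cutoff. Across the 15881 genes tested, 777 (4.89%) were called higher and 494 (3.11%) lower, against 622 and 678 when libraries were scaled by their totals alone. At the adjusted p alone, 6 members rose and 0 fell, beside 2035 genes (12.8%) that rose and 1619 (10.2%) that fell among all those tested. Mmp12 passed the filter on low counts only through Confine and could be called in 1 direction only, so the counts to read beside these shares are those of the other 9 members, of which 4 were called higher and 5 rose. In 8 members, 7 without Mmp12, both Confine libraries lay above every Ctrl library, an arrangement found in 4118 (25.9%) of all genes tested. Mmp19 and Mmp23 had overlapping groups. The median log2 fold change of the 10 members was 2.54, with Mmp12 either as fitted or at its lower bound, and that of all genes tested was -0.002. This median lay in the gap between Mmp11, at 0.89, and Mmp9, at 4.18, so no member had a value near it, and without Mmp12 the median was 0.89.

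**Figure D1:**
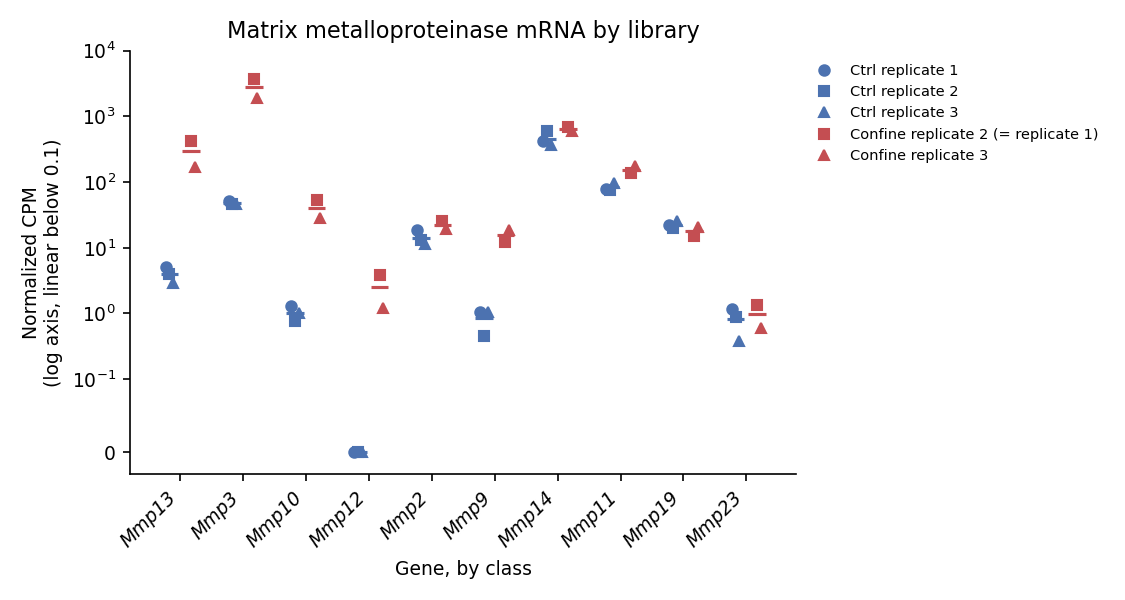
Normalized CPM of the 10 MMP genes (log axis, linear near 0), each point 1 library of Ctrl or Confine, genes ordered by class. The Confine points of Mmp3 (3721 and 1915 CPM) and Mmp13 (425 and 171.5 CPM) lie far above their Ctrl points, those of Mmp12 stand against 0 in Ctrl, and the points of Mmp19 and Mmp23 overlap between groups.

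The stromelysins Mmp3 and Mmp10 cut proteoglycans, laminin and fibronectin, and can activate the proenzymes of other MMPs. Mmp3 (ENSMUSG00000043613.8, chromosome 9, 7445822 to 7455975, plus strand, GRCm38) had 50.7, 46.6 and 46.3 CPM in Ctrl and 3721 and 1915 CPM in Confine. The 3 Ctrl libraries lay close together, both Confine libraries were far above them, and Confine replicate 2 held 1.94 times the level of replicate 3. The mean was 47.9 ± 2.43 CPM in Ctrl (SD, n = 3) and 2818 ± 1277 CPM in Confine (SD, n = 2). In edgeR's test the log2 fold change was 5.88 (SE 0.26), a 58.9-fold difference, with an adjusted p of 2.33e-11. This log2 fold change ranked 38 from the top among the genes tested. In bulk RNA, more cells that express a gene and more of its RNA per cell cannot be told apart, and this holds for each value below.

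Mmp10 (ENSMUSG00000047562.3, chromosome 9, 7502352 to 7510240, plus strand), the second stromelysin, had 1.28, 0.756 and 1.02 CPM in Ctrl and 53.1 and 28.3 CPM in Confine. It was low in every Ctrl library, at 37, 20 and 24 counts, and above them in both Confine libraries, at 1571 and 712 counts. Confine replicate 2 was again the higher, by 1.88 times. Its log2 fold change was 5.31 (SE 0.30, edgeR adjusted p = 4.32e-10), with means of 1.02 ± 0.261 CPM (SD, n = 3) and 40.7 ± 17.5 CPM (SD, n = 2).

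Mmp13 (ENSMUSG00000050578.10, chromosome 9, 7272514 to 7283331, plus strand) is the main collagenase of rodents, able to cleave the triple helix of fibrillar collagen. Its level was 5.04, 4.01 and 2.89 CPM in Ctrl and 425 and 171.5 CPM in Confine. No Ctrl library came near either Confine library, although replicate 2 of Confine exceeded replicate 3 by 2.48 times. The means were 3.98 ± 1.08 CPM (SD, n = 3) and 298 ± 179.5 CPM (SD, n = 2), and the log2 fold change was 6.22 (SE 0.33, edgeR adjusted p = 2.47e-10), a 74.5-fold difference that ranked 30. The fold rested on both libraries unequally: the log2 fold change of Mmp13 was 5.42 without Confine replicate 2 and 6.73 without Confine replicate 3, and it was called either way.

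Mmp12 (ENSMUSG00000049723.14, chromosome 9, 7344381 to 7369499, plus strand), the metalloelastase best known from macrophages, had 0 counts in all 3 Ctrl libraries and 113 and 31 counts in Confine. In CPM these were 3.82 and 1.23, so the gene appeared in both Confine libraries at a low level and was not detected in Ctrl, where a count of 0 allows up to 3 counts, or 0.104 to 0.128 CPM. Against that floor of 3 counts per library it was at least 22.0-fold higher in Confine (edgeR adjusted p = 7.25e-06). The bound differed between libraries, at least 33.2-fold for Confine replicate 2 and 10.7-fold for replicate 3. None of its Ctrl libraries reached the filter's minimum, which the other 9 members reached in at least 2 of them. Its last part overlaps Mmp1b on the opposite strand over 1261 bases, and Mmp1b, a collagenase gene too low to be tested, had 1, 0 and 0 counts in Ctrl and 21 and 7 in Confine. Whether counting used the strand is not given in the sources used here, so reads in that stretch may belong to either gene.

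The gelatinases Mmp2 and Mmp9 cut denatured collagen and the type IV collagen of basement membranes. Mmp9 (ENSMUSG00000017737.2, chromosome 2, 164940780 to 164955850, plus strand), the gelatinase made on stimulation by many cell types, had 1.04, 0.454 and 1.06 CPM in Ctrl and 12.2 and 18.8 CPM in Confine. Here Confine replicate 3 was the higher library, with replicate 2 at 0.650 times its level, and both exceeded every Ctrl library. The log2 fold change of Mmp9 was 4.18 (SE 0.32, edgeR adjusted p = 3.26e-08), an 18.2-fold difference. Mmp2 (ENSMUSG00000031740.8, chromosome 8, 92827291 to 92853420, plus strand), the gelatinase that fibroblasts make without stimulation, had 18.8, 12.9 and 11.3 CPM in Ctrl and 25.5 and 19.0 CPM in Confine. The lower Confine library barely cleared Ctrl replicate 1. The log2 fold change of Mmp2 was 0.63 (SE 0.23, edgeR adjusted p = 0.0557), and without Ctrl replicate 1 it was 0.88 with an adjusted p of 0.0129.

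Because leukocytes are a known source of Mmp9 and Mmp12, leukocyte markers were read in the same libraries. The pan-leukocyte marker Ptprc and the macrophage and myeloid markers Adgre1, Itgam and Tyrobp were at 2 counts or fewer everywhere, and 6 of 12 leukocyte markers at 3 or fewer. The summed level of the 12 was 16.0 to 18.8 CPM in Ctrl and 36.5 to 41.8 CPM in Confine. Of the 5 that were tested, Cd68 (log2 fold change 2.67), Csf1r (1.45) and Cd14 (0.92) rose and Lyz2 (-2.64) fell. That is 80.0% of these 5 past the adjusted p, beside 23.0% of all genes tested. Cd68 and Cd14 can come from fibroblasts or leukocytes, and bulk RNA does not tell which cells gave the counts of any of these markers. The part of these markers' cells in the values of Mmp9 and Mmp12 was not tested. No marker of 6 epithelial and 5 endothelial ones passed the filter on low counts.

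Mmp14 (ENSMUSG00000000957.11, chromosome 14, 54431612 to 54445364, plus strand) is the membrane-type MMP that cuts collagen at the cell surface and activates the proenzyme of Mmp2. It was at 421, 591 and 362 CPM in Ctrl and 686 and 605.5 CPM in Confine. Both Confine libraries were above the Ctrl libraries, but Ctrl replicate 2 came close to Confine replicate 3. Its log2 fold change was 0.50 (SE 0.20, edgeR adjusted p = 0.0917), with means of 458 ± 119 CPM (SD, n = 3) and 646 ± 57.2 CPM (SD, n = 2). Without Ctrl replicate 2 it was 0.72, with an adjusted p of 0.00582.

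Mmp11 (ENSMUSG00000000901.17, chromosome 10, 75923222 to 75936496, minus strand), an MMP of stromal fibroblasts that furin activates inside the cell, had 79.4, 74.8 and 97.2 CPM in Ctrl and 137 and 173.5 CPM in Confine. The groups did not overlap, and the log2 fold change of 0.89 (SE 0.19, edgeR adjusted p = 0.00177) passed the test but not the fold cutoff. Without Confine replicate 3 it was 0.71, with an adjusted p of 0.0716. Mmp19 (ENSMUSG00000025355.7, chromosome 10, 128790910 to 128800824, plus strand), a secreted MMP that cuts basement membrane proteins, had 22.1, 19.8 and 25.2 CPM in Ctrl and 15.0 and 20.4 CPM in Confine. The groups of Mmp19 overlapped, its log2 fold change was -0.34 (SE 0.21, edgeR adjusted p = 0.265), and it was the only member with a negative value. It shares 789 bases with Tmem198b on the opposite strand, which had 443 to 909 counts, so its level carries the same doubt about strand. Mmp23 (ENSMUSG00000029061.2, chromosome 4, 155650655 to 155653384, minus strand), a membrane-anchored member of unusual domain structure, had only 9 to 40 counts in any library. Its level was 1.18, 0.869 and 0.383 CPM in Ctrl and 1.35 and 0.596 CPM in Confine, with a log2 fold change of 0.26 (SE 0.53, edgeR adjusted p = 0.779). Its sign turned to -0.08 without Ctrl replicate 3 and to -0.45 without Confine replicate 2.

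**Figure D2:**
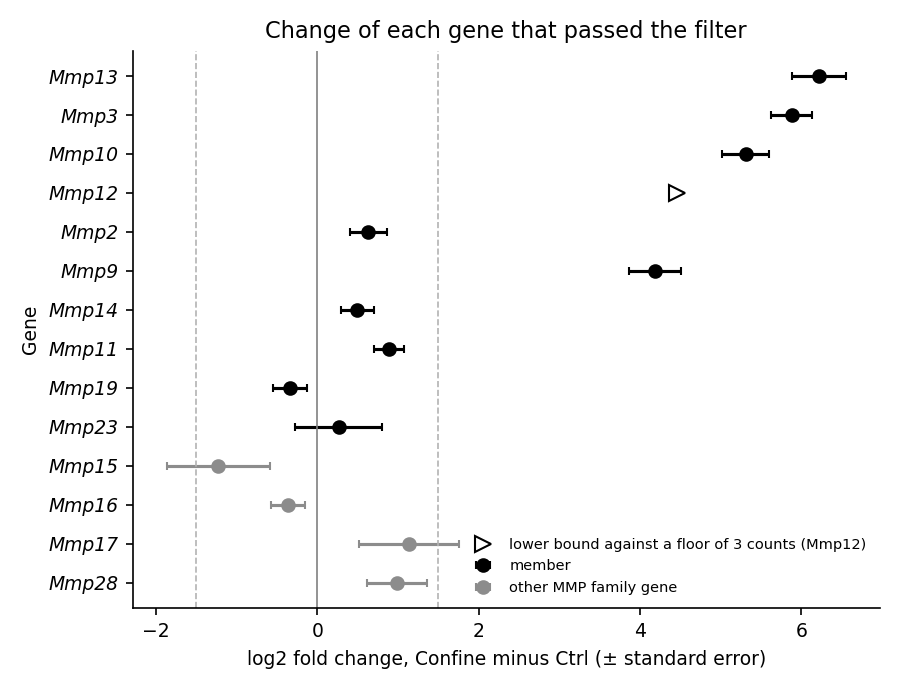
Log2 fold change (Confine minus Ctrl) in edgeR's fit of the 10 MMP genes (black) and the 4 other MMP genes tested (grey), with bars of 1 SE and dashed lines at the cutoff of 1.5, and with Mmp12 as a lower bound against 3 counts per Ctrl library. Mmp13 (6.22), Mmp3 (5.88), Mmp10 (5.31) and Mmp9 (4.18) stand apart from the other fitted members of the 10, which lie between -0.34 and 0.89.

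The order of the genes by level differed between the groups. On a scale of CPM per kilobase of exon, Mmp14 was the highest member in Ctrl with a mean of 76.8, followed by Mmp11 at 30.2 and Mmp3 at 26.6, whose ranges over the libraries overlapped. Mmp19 (6.33), Mmp2 (4.25) and Mmp13 (1.49) came next with separate ranges. Mmp10 (0.591), Mmp23 (0.346) and Mmp9 (0.241) overlapped with their neighbours, and Mmp12 was at 0.

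In Confine the highest member was Mmp3, at a mean of 1565 CPM per kilobase, with libraries at 1063 and 2066. Mmp13 (112) and Mmp14 (108) followed with overlapping ranges, then Mmp11 at 55.9 and Mmp10 at 23.6. Mmp2 (6.60), Mmp19 (5.01) and Mmp9 (4.39) overlapped with their neighbours, and Mmp23 (0.416) with Mmp12 (0.349). Among the 15871 tested genes with an exon length, Mmp3 stood at rank 1954, 1975 and 2088 by this level in the Ctrl libraries and at rank 19 and 55 in the Confine libraries. Mmp14 kept a high place in both groups, at 870, 591 and 1021 in Ctrl and 586 and 648 in Confine.

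The reads of the 10 MMP genes were also shared out differently. They made up 0.0624, 0.0813 and 0.0578% of all counts in Ctrl and 0.462 and 0.273% in Confine. Mmp14 held 70.1, 78.7 and 66.2% of the members' counts in Ctrl and 13.5 and 20.5% in Confine. Mmp3 held 8.45, 6.21 and 8.46% in Ctrl and 73.2 and 64.8% in Confine. These shares are of reads and so weigh long transcripts more, but each gene's own share can be compared between libraries, and for both genes the groups did not overlap. A share also falls when other members rise. The lower share of Mmp14 in Confine was not a lower level, since its mean was 458 CPM in Ctrl and 646 CPM in Confine.

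**Figure D3:**
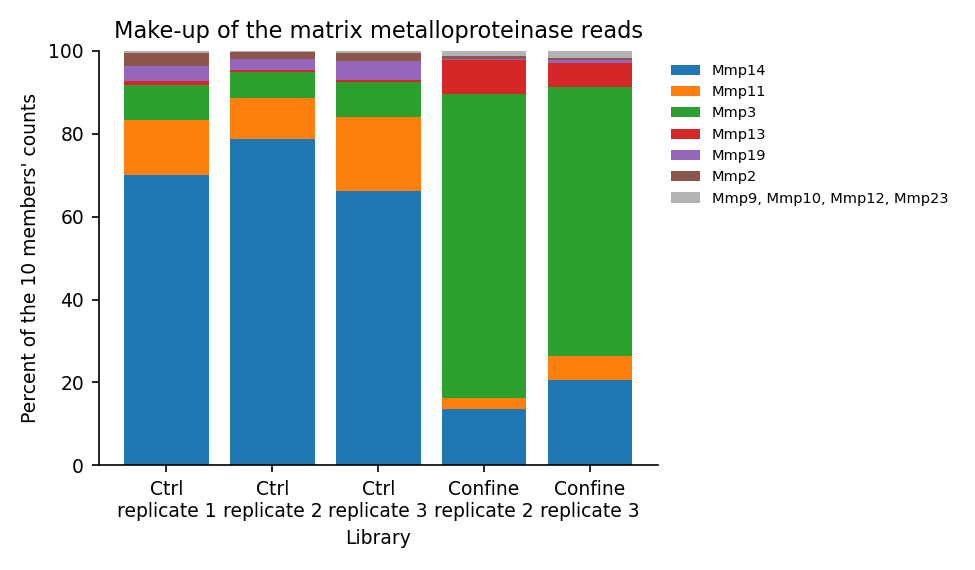
Stacked bars of the percent of the 10 MMP genes' counts that each gene held, per library. Mmp14 fills 66.2 to 78.7% of the Ctrl bars, and Mmp3 fills 73.2 and 64.8% of the Confine bars.

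Mmp3, Mmp10, Mmp12 and Mmp13 lie in 1 cluster of MMP genes on chromosome 9, and all 4 were called, Mmp12 with the limit given above. Of the other 6 members, Mmp9 was called. In GRCm38 the cluster holds 10 genes from Mmp13 to Mmp7 over 427 kb (7272514 to 7699585). These 4 were the only cluster genes with enough counts to be tested. Of the remaining genes of the cluster, Mmp1b is described above, Mmp1a had 0, 1 and 0 counts in Ctrl and 1 and 4 in Confine, Mmp8 and Mmp27 did not exceed 2 counts, and Mmp20 and Mmp7 had 0.

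The next 3 tested genes on either side, chosen after values of the cluster had been seen, gave a measure of the surroundings. Upstream of Mmp13, the log2 fold change was -0.62 for Ddi1, 0.37 for Dync2h1 and 0.03 for Dcun1d5, with edgeR adjusted p-values of 0.478, 0.283 and 0.929. Beyond Mmp7, it was -0.22 for Tmem123 and -0.02 for Birc2, with adjusted p-values of 0.530 and 0.964. Birc3, an inhibitor of apoptosis, rose by 1.02 (SE 0.34, edgeR adjusted p = 0.0349), which is under the fold cutoff. Of these 6 neighbours 0 were called, beside 4.89% of all genes tested called higher and 3.11% called lower. At such shares few calls could be looked for among 6 genes, so this count does not set the cluster apart from its surroundings.

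**Figure D4:**
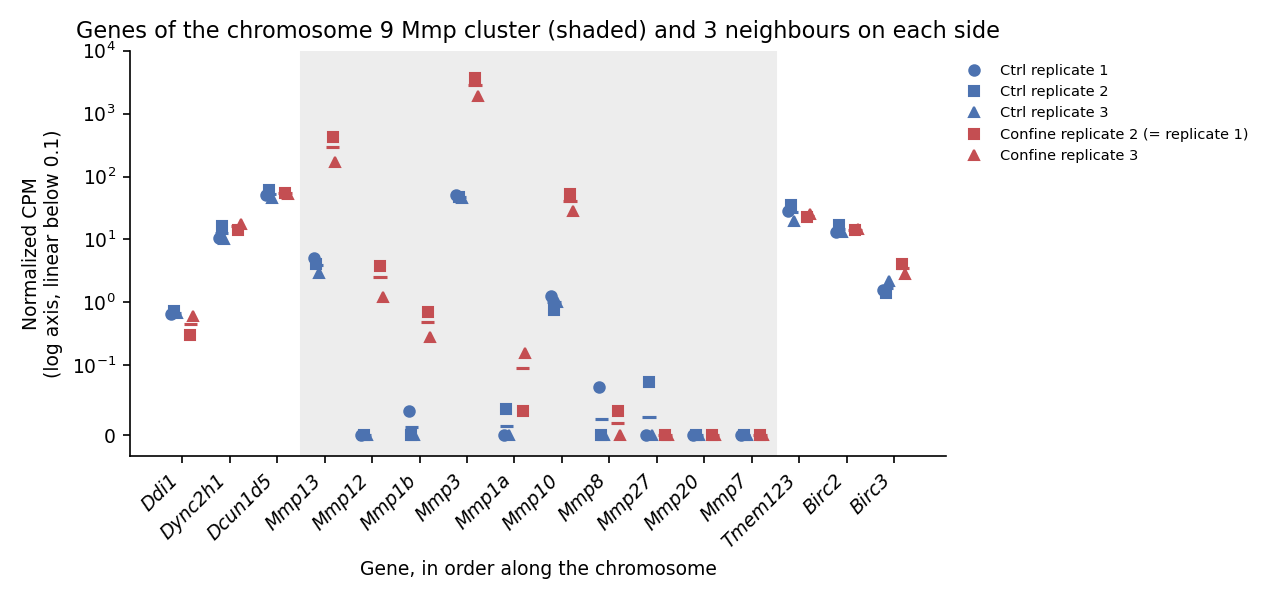
Normalized CPM (log axis, linear near 0) of the 10 genes of the chromosome 9 cluster (shaded) and 3 tested neighbours on each side, in order along the chromosome, each point 1 library. Mmp13, Mmp12, Mmp3 and Mmp10 show Confine points above Ctrl, the remaining cluster genes lie near 0, and most neighbours have overlapping groups.

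Promoters of the 4 called cluster genes are shown because these genes moved together. Promoters of the other cluster genes were not read, so whether a motif goes with the change inside the cluster was not tested. Some MMP promoters, but not all, are also known for a binding site of the AP-1 transcription factor near a TATA box. RefSeq promoters (GRCm38.p6) were found for 7 of the 10 members, namely Mmp3, Mmp10, Mmp11, Mmp12, Mmp13, Mmp14 and Mmp23, and they include 2 starts each for Mmp12 and Mmp23. None was at hand for Mmp2, Mmp19 or Mmp9, so the called member outside the cluster could not be compared. The 250 bases before the start are given 5′ to 3′ on the plus strand, with the AP-1 motif TGAGTCA, or its reverse complement TGACTCA, in capitals. Mmp14, which was not called, is given last for contrast. They lie at chr9:7272264-7272513 (Mmp13), chr9:7445572-7445821 (Mmp3), chr9:7502092-7502341 (Mmp10), chr9:7347124-7347373 (the second start of Mmp12, inside an intron of its longer transcripts) and chr14:54431348-54431597 (Mmp14).
Mmp13: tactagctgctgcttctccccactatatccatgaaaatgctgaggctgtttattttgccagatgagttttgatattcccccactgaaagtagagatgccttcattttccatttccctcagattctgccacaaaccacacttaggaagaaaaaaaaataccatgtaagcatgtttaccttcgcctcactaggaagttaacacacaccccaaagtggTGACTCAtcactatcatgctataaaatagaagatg
Mmp3: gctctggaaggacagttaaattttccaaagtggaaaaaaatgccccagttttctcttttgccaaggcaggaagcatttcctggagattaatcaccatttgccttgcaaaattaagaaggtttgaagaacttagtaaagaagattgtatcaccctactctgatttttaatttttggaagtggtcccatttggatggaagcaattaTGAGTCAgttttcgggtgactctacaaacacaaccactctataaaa
Mmp10: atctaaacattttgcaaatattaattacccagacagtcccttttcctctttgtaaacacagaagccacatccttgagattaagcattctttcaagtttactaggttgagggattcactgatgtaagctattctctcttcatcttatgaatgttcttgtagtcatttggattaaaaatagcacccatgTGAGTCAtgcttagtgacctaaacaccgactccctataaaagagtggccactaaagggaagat
Mmp12: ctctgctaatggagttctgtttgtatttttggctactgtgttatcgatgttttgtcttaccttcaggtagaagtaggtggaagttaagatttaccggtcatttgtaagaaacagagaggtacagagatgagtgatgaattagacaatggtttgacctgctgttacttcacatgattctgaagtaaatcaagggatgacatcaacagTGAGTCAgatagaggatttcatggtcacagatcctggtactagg
Mmp14: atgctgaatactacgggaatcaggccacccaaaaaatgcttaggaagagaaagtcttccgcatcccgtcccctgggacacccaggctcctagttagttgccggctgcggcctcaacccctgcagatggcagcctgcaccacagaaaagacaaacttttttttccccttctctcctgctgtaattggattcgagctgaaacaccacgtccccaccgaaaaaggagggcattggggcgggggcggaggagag

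Counted back from the base before the start, the AP-1 motif lay at bases 35 to 29 in Mmp13, 46 to 40 in Mmp3, 63 to 57 in Mmp10 and 44 to 38 before the second start of Mmp12. It was not found before the first start of Mmp12, nor in Mmp11, Mmp14 or Mmp23. Searched on both strands, this motif was in 4.46% of 32851 RefSeq promoters of the same length and in 3.57% of the 13190 that belong to tested genes. The letters TATAAA on the gene's strand were found in Mmp13, Mmp3 and Mmp10, at bases 16 to 11, 7 to 2 and 29 to 24, and in 7.59% of all promoters. The letters AGGAAG, a core of sites for ETS factors, were searched on both strands and were found in Mmp13, Mmp3, Mmp14 and before the first start of Mmp12, beside 29.5% of all promoters. No motif overlapped another in these windows. A match describes the letters only, and binding was not measured.

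Factors that act on such promoters were read as a list of 28 transcription factors, of which 28 were tested, 11 rose and 2 fell, with a median log2 fold change of 0.57. Among all genes tested 12.8% rose and 10.2% fell. Beside these 23.0% in all, 46.4% of the 28 factors passed the test. This list and those below were chosen with earlier results of these data known. Those called were split within the AP-1 family. Fosl1 (2.79, edgeR adjusted p = 1.64e-07) and Jun (1.83, adjusted p = 8.81e-06) were higher in Confine, and Fos (-2.74, adjusted p = 8.10e-05) and Fosb (-2.64, adjusted p = 0.000230) were lower. The ETS factor gene Etv1 was called as well (2.00, adjusted p = 1.48e-06). In CPM, Fosl1 went from 15.9 ± 6.43 (SD, n = 3) to 110 ± 3.97 (SD, n = 2).

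A list of 31 cytokines, growth factors, receptors and related genes was drawn up around known inducers of MMPs. Of these 31, 26 were tested, 12 rose and 3 fell, with a median log2 fold change of 0.50. Not all are inducers, since Ptgs2 codes for an enzyme and Il1rn for an antagonist, so these counts mix different roles. Beside 23.0% of all genes tested, 57.7% of these 26 passed the test. The called ones included Hbegf (3.47), an EGF receptor ligand, the cytokine Lif (3.16), the prostaglandin synthase Ptgs2 (2.73) and Il11 (1.68), all higher, and Il1rn (-3.23), the antagonist of the interleukin-1 receptor, which was lower. Their edgeR adjusted p-values ran from 6.25e-10 for Hbegf to 3.98e-05 for Il11. With libraries scaled by their totals alone, the log2 fold change of Il11 was 1.47, under the cutoff.

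Of 11 genes listed as MMP inhibitors, 8 were tested, 1 rose and 0 fell, with a median log2 fold change of -0.01. The list was wide: besides Timp1, Timp2, Timp3 and Reck, the tested genes were the matrix genes Sparc, Thbs1, Thbs2 and Pcolce. The share that rose, 12.5%, was close to the 12.8% of all genes tested that rose. Timp1, a secreted inhibitor of most MMPs, rose from 299 ± 52.6 CPM (SD, n = 3) to 542.0 ± 25.3 CPM (SD, n = 2), a log2 fold change of 0.86 (edgeR adjusted p = 0.00232). For Timp2 the value was -0.17 (adjusted p = 0.612), for Timp3 0.22 (adjusted p = 0.459) and for Reck, a membrane-bound inhibitor, -0.45 (adjusted p = 0.403). Timp4 was too low to be tested, at 4 to 12 counts.

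Genes that activate MMP proenzymes or hold them at the cell surface numbered 21, of which 15 were tested, 9 rose and 2 fell, with a median log2 fold change of 0.69. Beside 23.0% of all genes tested, 73.3% of these 15 passed the test. Those called higher were the integrin gene Itgb3 (3.05, edgeR adjusted p = 7.00e-07), Bsg (2.98, adjusted p = 2.05e-09), whose protein basigin is known as an inducer of MMPs, and the plasminogen activator Plat (2.19, adjusted p = 9.16e-08). Bsg stood at 894 ± 143 CPM in Ctrl (SD, n = 3) and 7064 ± 33.2 CPM in Confine (SD, n = 2). The proprotein convertase gene Pcsk6 was called lower (-2.50, adjusted p = 1.10e-05). The urokinase gene Plau (0.40, adjusted p = 0.254) and its receptor gene Plaur (0.29, adjusted p = 0.404) did not pass the test.

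Of 27 genes for matrix and cell surface substrates of MMPs, 22 were tested, 15 rose and 2 fell, with a median log2 fold change of 0.78. Beside 23.0% of all genes tested, 77.3% of these 22 passed the test. The called ones, all higher in Confine, included Col3a1 (2.21), a fibrillar collagen, the lysyl oxidase Loxl2 (2.20) and the syndecan Sdc4 (2.15). Each of these lists was read gene by gene in the same fit as the MMP genes, and no test was made of a list as a whole. Because the lists were chosen with earlier results known, their shares beside 23.0% do not show that a list changed more than other genes.

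The other 13 family members were read last. Mmp15 (-1.23, edgeR adjusted p = 0.185), Mmp16 (-0.37, adjusted p = 0.249), Mmp17 (1.13, adjusted p = 0.212) and Mmp28 (0.99, adjusted p = 0.0650) were the 4 that were tested. Beside 23.0% of all genes tested, 0 of these 4 passed. Of these Mmp16 was the highest, at 15.4 ± 2.00 CPM in Ctrl (SD, n = 3) and 11.9 ± 2.05 CPM in Confine (SD, n = 2). Mmp1a, Mmp1b, Mmp7, Mmp8, Mmp20, Mmp21, Mmp24, Mmp25 and Mmp27 were not tested, and apart from Mmp1b their highest count was 6.

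**Figure D5:**
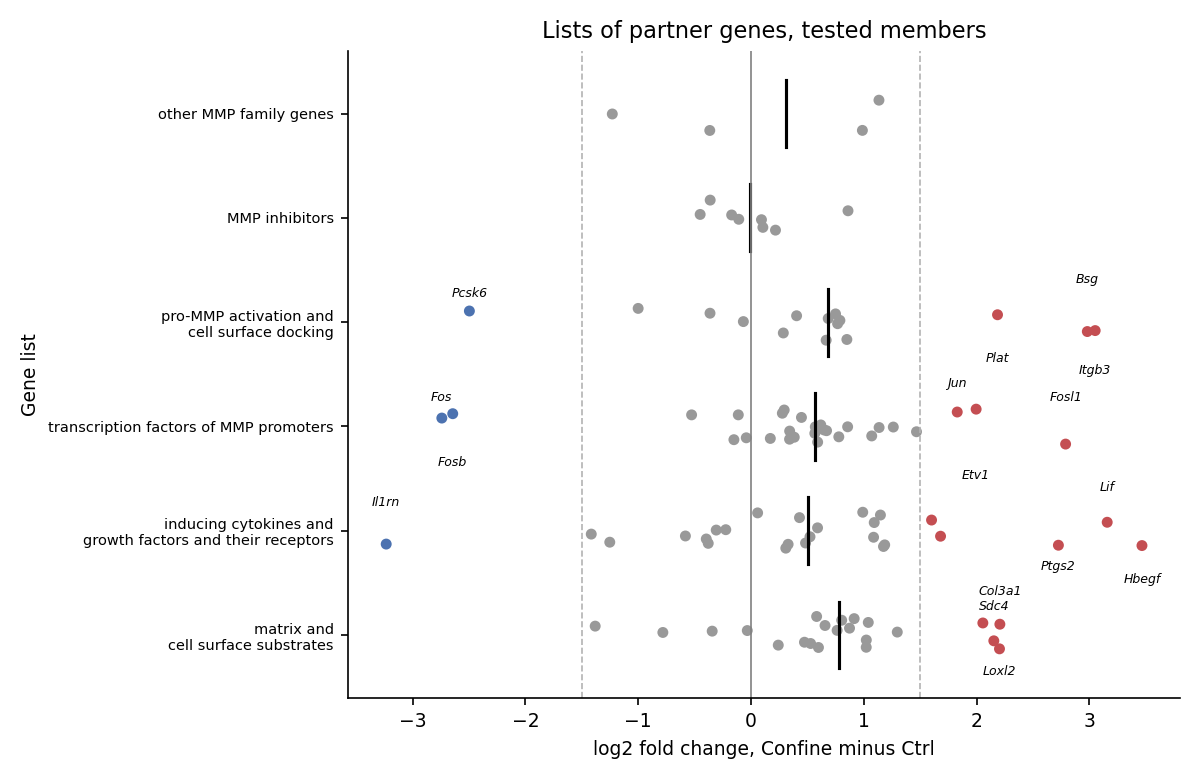
Log2 fold change (Confine minus Ctrl) of each tested gene in the lists of other MMP genes, inhibitors, activation and docking genes, transcription factors, inducers and substrates. Each point is 1 gene, black ticks are list medians (-0.01 to 0.78), dashed lines mark the cutoff of 1.5, and up to 3 called genes per list and direction are named, those with the strongest change.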

How the data were processed

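RNA from WT MEFs in the groups Ctrl and Confine was measured in 6 deposited columns, of which 2 were identical, and samples were grouped by their titles. Per the labels, the authors selected polyadenylated RNA, prepared dUTP libraries, and deposited raw counts of reads per gene. The submitters' processing notes name Trim Galore 0.6.10, HISAT2 2.1.0, SAMtools 1.5, featureCounts and the build mm10. The annotation and the strand setting are not given in the sources used here, and the latter could move counts between overlapping genes. Names, positions and exon lengths came from GENCODE M21 (GRCm38), which named 55154 of 55335 identifiers. Columns not used numbered 0.

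Genes passing filterByExpr (15881) entered a quasi-likelihood fit without a block (edgeR 4.0.16, R 4.3.3, TMM scaling), and p-values were adjusted over all of them by the Benjamini-Hochberg method. The planned design of 3 against 3 became 3 against 2, with 3 residual degrees of freedom. Calls needed an adjusted p below 0.05 and a log2 fold change beyond 1.5 in either direction. A floor of 3 counts was 0.101 to 0.128 CPM and covers counting error only, since reads carried no molecular identifiers. Genes sharing at least 100 bases at 95% identity were searched among transcripts with blastn. Only Mmp11, Mmp14, Mmp19, Mmp3 and Mmp12 had such a match, and those of Mmp3 had at most 2 counts. The matched genes reached 16 counts for Mmp11, 21 for Mmp12, 603 for Mmp14 and 909 for Mmp19.

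All 10 members were named, with every tested MMP gene, Timp1, Timp2, Timp3, Timp4, Reck, Plau, Plaur and at most 5 called genes of each other list, by size of change, and some genes that this rule names are not reported here. Members and lists were chosen with earlier results of these data known. The fit was tested on simulated data. Alternatives were library size alone, DESeq2 size factors, DESeq2 1.42.0, limma-voom (limma 3.58.1), other filters and cutoffs, a replicate block, and leaving out each library.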

Additional observations from a re-analysis of the deposited data

How the results depend on the processing

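The 5 called MMP genes, Mmp3, Mmp9, Mmp10, Mmp12 and Mmp13, were called under each of the 16 alternatives, except that Mmp12 was not tested when at least 10 counts were asked of every library. Of 138 member log2 fold changes under alternatives, 127 kept their direction and side of the test's threshold, and of 128 counts of calls, 117 stayed within 1.5 times the reported count. Leaving out each library gave a log2 fold change of 5.32 to 6.28 for Mmp3, 3.84 to 4.46 for Mmp9, 4.78 to 5.69 for Mmp10 and 5.42 to 6.73 for Mmp13. For members not called, the ranges were 0.40 to 0.88 for Mmp2, 0.71 to 1.05 for Mmp11, 0.34 to 0.72 for Mmp14, -0.57 to -0.14 for Mmp19 and -0.45 to 0.72 for Mmp23, whose sign turned to -0.08 without Ctrl replicate 3 and to -0.45 without Confine replicate 2. With 1 Confine library left, that library is assumed to vary like Ctrl. Mmp2 passed the adjusted p with no filter on low counts (log2 fold change 0.62) and with the identical columns kept as 2 libraries (log2 fold change 0.70). Mmp14 passed in the latter (log2 fold change 0.53).

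The whole comparison gave 3654 called genes with no cutoff on the fold change, 812 with at least 10 counts in every library and 357 with glmTreat, which tests against the cutoff. With no fold cutoff the lists gave 1 inhibitor, 11 activation and docking genes, 13 transcription factors, 15 inducer-list genes and 17 substrates. With glmTreat they gave 2 transcription factors and 2 substrates. Among the genes named, Fosb, Jun, Etv1, Il11 and Loxl2 were not called by glmTreat, and Il11 not with library size alone. With no filter on low counts, 1 other MMP gene was called. These follow from the looser or stricter rules themselves. Scaling by library size alone moved the median log2 fold change of all genes by -0.21, and no member changed direction.

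Deviations of libraries with the same number correlated at 0.05 or -0.05 over 15881 genes, with the identical columns taken as number 1 or 2. Over the 10304 genes at higher levels the values were 0.086 and -0.11. So few libraries enter each value that this cannot tell whether the replicate numbers pair the libraries. With the replicate block, the log2 fold change was 0.59 or 0.87 for Mmp2 and 0.72 or 0.48 for Mmp14. Mmp2 in both and Mmp14 in the first passed the adjusted p. That fit had 1 residual degree of freedom. Depth limits Mmp12 in Ctrl and Mmp23 throughout.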
